A study of Homo sapiens with 6 samples.

Results

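Antisense long noncoding RNA (lncRNA) genes whose symbols end in AS and a digit, such as IGFBP7-AS1, were described together with the sense genes whose symbols they carry. The set held every gene of the table that was typed as lncRNA, had such a symbol and averaged 50 normalized counts or more across all 6 libraries. The members were thus chosen by their mean level over both groups together, not by a change between them. This gave 620 genes of the 16569 in the table. The table listed 1411 such antisense genes at any level, among 3673 lncRNA genes, and 791 of the 1411 stayed under the mean of 50. A sense partner was in the table for 416 of the 620 genes, 204 had none there, and the partners were 407 distinct genes. Of these partners, 8 were shared by 17 antisense genes, so those antisense genes are not independent of each other.

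RNA sequencing was done on LX-2 cells, an established human hepatic stellate cell line labelled as wild type, in DMEM with 2% fetal bovine serum. The cells of both groups were first kept 18 h without serum. One group (3 libraries, titled as controls) then received phosphate-buffered saline (PBS) and the other (3 libraries) IGFBP-7 protein at 100 ng/mL, each for 24 h. All libraries came from 1 cell line, and no label states whether the 3 libraries of a group were separate cultures, so the p-values reflect only how much these libraries vary, and that variation could be technical. The comparison asks which transcripts differed between cells given IGFBP-7, a secreted member of the IGF binding protein family, and cells given PBS.

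An antisense lncRNA is transcribed from the strand opposite to another gene, and it may start close to that gene's promoter or inside its body. Some are known to act on the neighbouring gene through transcription across it, through chromatin-modifying complexes or through RNA duplexes, and others act elsewhere or have no known role. Hepatic stellate cells are the liver's main source of fibrillar collagen when activated, and several antisense lncRNAs lie beside genes of matrix and contraction. Every value below has to be read with the counting in mind: an antisense gene can share exonic bases with its partner on the other strand, and only reads with known strand can be assigned to one of the genes there.

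The regions around the annotated starts of 8 of these genes are shown because the results turn on them: the 3 largest rises, 2 further genes that rose much more than their partners, the antisense gene of IGFBP7 itself, and 2 of the largest falls. Each run covers 250 bases before to 50 after the start on the gene's own strand, 5′ to 3′, from RefSeq (GRCh38.p14). Capitals mark the letters of 4 motifs on either strand, and none of these matches overlapped another.
MAP3K4-AS1: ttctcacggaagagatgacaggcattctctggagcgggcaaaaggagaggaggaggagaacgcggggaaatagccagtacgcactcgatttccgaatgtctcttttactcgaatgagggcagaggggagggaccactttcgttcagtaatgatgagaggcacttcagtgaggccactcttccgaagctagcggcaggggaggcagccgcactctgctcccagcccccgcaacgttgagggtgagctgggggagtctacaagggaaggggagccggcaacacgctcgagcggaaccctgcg
COL5A1-AS1: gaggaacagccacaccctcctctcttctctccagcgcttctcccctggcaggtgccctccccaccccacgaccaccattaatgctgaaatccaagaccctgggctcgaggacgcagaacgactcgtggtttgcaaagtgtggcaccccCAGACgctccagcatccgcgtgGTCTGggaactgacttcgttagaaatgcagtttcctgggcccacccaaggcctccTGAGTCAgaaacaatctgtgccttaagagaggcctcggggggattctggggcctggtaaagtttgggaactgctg
BHLHE40-AS1: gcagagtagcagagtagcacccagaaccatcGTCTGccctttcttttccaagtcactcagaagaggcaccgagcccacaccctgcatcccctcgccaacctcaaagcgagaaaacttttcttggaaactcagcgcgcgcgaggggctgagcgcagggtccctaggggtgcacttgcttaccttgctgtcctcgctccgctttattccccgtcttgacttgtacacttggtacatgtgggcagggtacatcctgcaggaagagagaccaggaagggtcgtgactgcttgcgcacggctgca
STARD4-AS1: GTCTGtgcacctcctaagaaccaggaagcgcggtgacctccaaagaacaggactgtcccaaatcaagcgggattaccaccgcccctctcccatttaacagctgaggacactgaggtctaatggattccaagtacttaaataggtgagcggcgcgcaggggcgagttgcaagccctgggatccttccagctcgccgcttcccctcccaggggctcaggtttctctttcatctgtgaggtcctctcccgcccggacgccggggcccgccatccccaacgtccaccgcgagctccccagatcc
RETREG1-AS1: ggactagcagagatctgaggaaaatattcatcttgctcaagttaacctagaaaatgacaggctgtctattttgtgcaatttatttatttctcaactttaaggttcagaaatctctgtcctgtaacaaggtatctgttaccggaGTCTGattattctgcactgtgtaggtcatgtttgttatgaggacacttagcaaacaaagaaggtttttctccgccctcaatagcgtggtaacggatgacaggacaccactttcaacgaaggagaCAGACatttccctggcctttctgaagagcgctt
IGFBP7-AS1: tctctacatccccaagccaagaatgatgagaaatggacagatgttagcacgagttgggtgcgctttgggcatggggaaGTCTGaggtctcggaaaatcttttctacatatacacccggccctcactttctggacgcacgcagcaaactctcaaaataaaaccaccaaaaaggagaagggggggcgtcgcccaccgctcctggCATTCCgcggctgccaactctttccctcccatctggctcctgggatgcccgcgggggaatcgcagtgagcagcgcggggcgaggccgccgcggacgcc
CAVIN2-AS1: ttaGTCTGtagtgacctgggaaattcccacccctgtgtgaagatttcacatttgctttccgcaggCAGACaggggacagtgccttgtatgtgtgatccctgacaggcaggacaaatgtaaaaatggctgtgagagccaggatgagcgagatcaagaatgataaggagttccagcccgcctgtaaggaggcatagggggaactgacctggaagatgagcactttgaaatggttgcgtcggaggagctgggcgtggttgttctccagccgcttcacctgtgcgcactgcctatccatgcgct
C12orf75-AS1: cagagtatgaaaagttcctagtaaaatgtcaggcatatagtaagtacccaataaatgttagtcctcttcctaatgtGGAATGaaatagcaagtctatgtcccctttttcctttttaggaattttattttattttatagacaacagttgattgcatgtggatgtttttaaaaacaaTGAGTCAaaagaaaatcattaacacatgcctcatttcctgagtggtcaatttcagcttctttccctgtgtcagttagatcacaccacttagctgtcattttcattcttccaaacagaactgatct
Of 4 motifs searched, the AP-1 motif TGAGTCA stood in the windows of COL5A1-AS1 and C12orf75-AS1. The TEAD motif GGAATG was in those of IGFBP7-AS1 and C12orf75-AS1. The short SMAD motif CAGAC was in 6 of the 8, with 2 matches each at COL5A1-AS1, RETREG1-AS1 and CAVIN2-AS1. The E-box CACGTG was in none of the 8, and the MAP3K4-AS1 window held none of the 4 motifs. Over all 27305 start regions of the same length the shares with a match were 4.92% for AP-1, 45.0% for SMAD, 7.43% for the E-box and 14.05% for TEAD. Over the 450 start regions matched to the 620 antisense genes they were 5.78%, 45.1%, 7.56% and 13.6%. A match is a description of letters only. The MAP3K4-AS1 window is chr6:160992293-160992592 on the minus strand. The COL5A1-AS1 window is chr9:134652794-134653093 on the minus strand. That of BHLHE40-AS1 is chr3:4979912-4980211 on the minus strand, at the start nearest to BHLHE40 of those listed. That of STARD4-AS1 is chr5:111511976-111512275 on the plus strand, and that of RETREG1-AS1 is chr5:16615676-16615975 on the plus strand. IGFBP7-AS1 has chr4:57109512-57109811 on the plus strand, CAVIN2-AS1 has chr2:191846238-191846537 on the plus strand and C12orf75-AS1 has chr12:105326968-105327267 on the minus strand.

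The libraries held 41345077, 43537923 and 40599380 recovered reads with PBS and 47196478, 55479940 and 45242993 with IGFBP-7. Pearson's r between libraries over all tested genes was 0.987 to 0.989 within groups and 0.952 to 0.954 between them, and no library stood apart. Of 11 tested stellate and mesenchymal markers, 8 were higher and 2 lower (LUM and HAND2) with IGFBP-7. Summed over that list without COL1A1, its most abundant gene, the level was 71048 to 71954 normalized counts per PBS library and 136997 to 154251 per IGFBP-7 library. Of the markers of other liver cells listed, 10 genes were tested. Of 3 macrophage and leukocyte markers, CD68 and CD14 were lower and CSF1R was higher. Of 4 endothelial markers, PECAM1 was higher (61.5 ± 3.8 to 113 ± 10.2) and 3 did not pass, and CDH5 was listed at 0 in all IGFBP-7 libraries after 6.18, 5.89 and 17.1 with PBS. SOX9, of 2 epithelial markers, was higher, and SERPINA1, the hepatocyte marker tested, did not pass. ALB, PTPRC, EPCAM and LYVE1 had group means under 10 in both groups. The part of these markers in the results below was not tested. All libraries came from 1 cell line, so other liver cell types were not part of the design. In these bulk samples, fewer cells with a transcript and less of it per cell cannot be told apart.

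With IGFBP-7, 117 of the 620 antisense genes rose, 146 fell and 357 did not pass (limma on log2(normalized count + 1), adjusted p under 0.05 over all 11872 tested genes). The changed share was 42.4%, against 60.6% of all tested genes (31.3% higher, 29.2% lower), 68.8% of tested genes with a mean of 50 or more (36.2% higher, 32.6% lower) and 48.3% of the 545 lncRNA genes at that level outside the set (26.8% higher, 21.5% lower). No test of the difference between these shares was made. The median log2 change was -0.01 over the antisense genes and 0.02 over all tested genes. Scaling each library to its total moved the median of all genes by -0.14 and the split to 80 higher and 202 lower, so the balance of directions depends on the scaling. In 297 antisense genes (47.9%) the 3 PBS and 3 IGFBP-7 values did not overlap, against 63.5% of all tested genes, and 248 of these were among the 263 that changed.

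Changes of at least 2-fold were made by 22 antisense genes upwards (3.55%) and 38 downwards (6.13%), against 5.05% and 6.33% of all tested genes. At 4-fold, 6 rose (0.968%) and 4 fell (0.645%), against 1.73% and 1.38% of all tested genes. The minimum of 50 over both groups let in 34 genes with 1 group mean under 50. Of the 13 that were under it with PBS, 10 rose and 0 fell, and of the 21 under it with IGFBP-7, 15 fell and 0 rose. These genes had to be high in the other group to be included, so their direction follows in part from the minimum. Among the largest rises below, COL5A1-AS1, CLDN14-AS1, IL21R-AS1, HOXB-AS4, LIF-AS2 and SSBP3-AS1 were under it with PBS. Among the largest falls, C12orf75-AS1, CAVIN2-AS1, CYP1B1-AS1 and ADAMTSL4-AS2 were under it with IGFBP-7. So were SLC30A4-AS1 and HOXD-AS2 with PBS and HDAC2-AS2 with IGFBP-7. Just inside the minimum lay TBX2-AS1 with a mean of 50.1 and KLRK1-AS1 with 50.7. Just outside lay EXTL3-AS1 with 49.95 and UFD1-AS1 with 49.9.

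MAP3K4-AS1 made the largest change. The normalized counts were 192, 276 and 218 in the PBS libraries 1 to 3 and 4156, 4095 and 3857 in the IGFBP-7 libraries, so every treated library lay far above every control. The group means were 228 ± 43.2 and 4036 ± 158 (SD, n = 3, as for all means below), a log2 change of 4.15 ± 0.09 (SE, limma adjusted p = 1.07e-38). MAP3K4, a kinase of the stress-activated MAPK pathways, went from 2691 ± 123 to 6412 ± 326, a smaller log2 rise of 1.25 ± 0.06. Of the 2025 exonic bases of MAP3K4-AS1, 357 (17.6%) lie over MAP3K4 exons in the GENCODE v29 annotation.

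COL5A1-AS1 was low in control cells and reached the minimum mean only through its IGFBP-7 values. It gave 11.3, 7.86 and 6.41 normalized counts with PBS and 98.1, 113 and 118 with IGFBP-7, without overlap, and 3 fragments correspond to 2.54 to 3.20 normalized counts in these libraries. The log2 change was 3.56 ± 0.37 (limma adjusted p = 4.65e-12). COL5A1, a chain of collagen V, rose from 12284 ± 371 to 73632 ± 2783 with a log2 change of 2.58 ± 0.04. None of the 336 exonic bases of COL5A1-AS1 lies over an exon of COL5A1.

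BHLHE40-AS1 rose beside BHLHE40, a transcriptional repressor linked to the circadian clock and to hypoxia. Its normalized counts were 299.7, 292 and 382 with PBS and 2268, 2299 and 2196 with IGFBP-7, and the control values all lay below 400. The log2 change was 2.80 ± 0.09 for the antisense gene (limma adjusted p = 1.74e-31) and 2.94 ± 0.05 for BHLHE40, which went from 2339 ± 151 to 17971 ± 683. Only 4 of 2717 exonic bases are shared. STARD4-AS1, the neighbour of a cytosolic cholesterol carrier gene, was the most abundant of the 10 largest rises. It had 2470.4, 2529.7 and 2734 normalized counts with PBS and 9019, 8851 and 8939 with IGFBP-7, or 1.79 ± 0.05 on the log2 scale (limma adjusted p = 3.28e-33), and control and treated values stood far apart.

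The other 6 of the 10 largest rises lay beside genes of junctions, cytokine signalling, matrix and transcription. CLDN14-AS1 (sense: a tight junction claudin) went from 27.2 ± 12.7 to 124 ± 8.74 and IL21R-AS1 (a cytokine receptor) from 25.2 ± 9.17 to 109.9 ± 20.1 normalized counts. LIF-AS2, beside the cytokine gene LIF, went from 46.4 ± 12.6 to 176 ± 7.73. THBS1-AS1, beside the gene of thrombospondin-1, went from 508 ± 52 to 1755 ± 191, with 78.1% of its exonic bases over THBS1 exons. HOXB-AS4, of the HOXB cluster and without a partner by name, went from 36.4 ± 5.17 to 150.0 ± 26.1. SSBP3-AS1 went from 40.1 ± 8.24 to 133 ± 9.06. Their log2 changes ran from 1.72 to 2.23, and in all 6 the groups did not overlap.

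C12orf75-AS1 fell most. It had 239, 282 and 261 normalized counts with PBS and 21.5, 22.9 and 41.3 with IGFBP-7. The groups stood wide apart (log2 change -3.20 ± 0.24, limma adjusted p = 9.11e-17). Its partner C12orf75, at 12517 ± 612 with PBS, fell by 0.28 on the log2 scale. CAVIN2-AS1 fell from 342, 310.3 and 343 to 52.1, 44 and 36.2, or -2.90 ± 0.19 on the log2 scale (limma adjusted p = 1.92e-18). CAVIN2, which encodes a coat protein of caveolae, fell alongside, from 2015 ± 18.7 to 276 ± 12 (-2.86 ± 0.09).

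Of the other 8 large falls, NR2F2-AS1 and DIRC3-AS1 share no exonic base with their partners. NR2F2-AS1, beside the gene of the orphan nuclear receptor COUP-TFII, had 528, 542 and 523 normalized counts with PBS and 167, 131 and 135 with IGFBP-7. NR2F2 fell from 20276 ± 570.0 to 5892 ± 264, with log2 changes of -1.78 ± 0.05 for NR2F2 and -1.88 ± 0.13 for NR2F2-AS1. DIRC3-AS1, whose partner DIRC3 is itself a noncoding gene, fell from 877 ± 101 to 235 ± 2.91. PHLDA1-AS1 fell from 2163 ± 60.5 to 573 ± 31.2, and 97.2% of its exonic bases lie over PHLDA1. The log2 ratio of PHLDA1-AS1 to PHLDA1 changed by -0.32 to -0.22 over 13 alternative settings and passed in 7 of them. PRKG1-AS1, beside a cGMP-dependent kinase gene, fell from 610.0 ± 71.3 to 107 ± 10.5, and stood above its partner, which had 45.4 ± 12.5 and 17.4 ± 2.88 normalized counts. SLCO4A1-AS1 (an organic anion transporter) fell from 291 ± 65.4 to 52.3 ± 13.8 and CYP1B1-AS1 (a cytochrome P450) from 149 ± 31.6 to 39.4 ± 16.3. CYP1B1 fell as well, with a log2 change of -1.99 ± 0.16. MME-AS1, beside the gene of the peptidase neprilysin, fell from 351 ± 33.7 to 98.5 ± 18.2. ADAMTSL4-AS2 fell from 158 ± 16.4 to 44.9 ± 9.61, with ADAMTSL4 at -1.44 ± 0.08 on the log2 scale. The log2 changes of these 8 antisense genes lay between -2.50 and -1.81, without overlap of the groups.

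**Figure D1:**
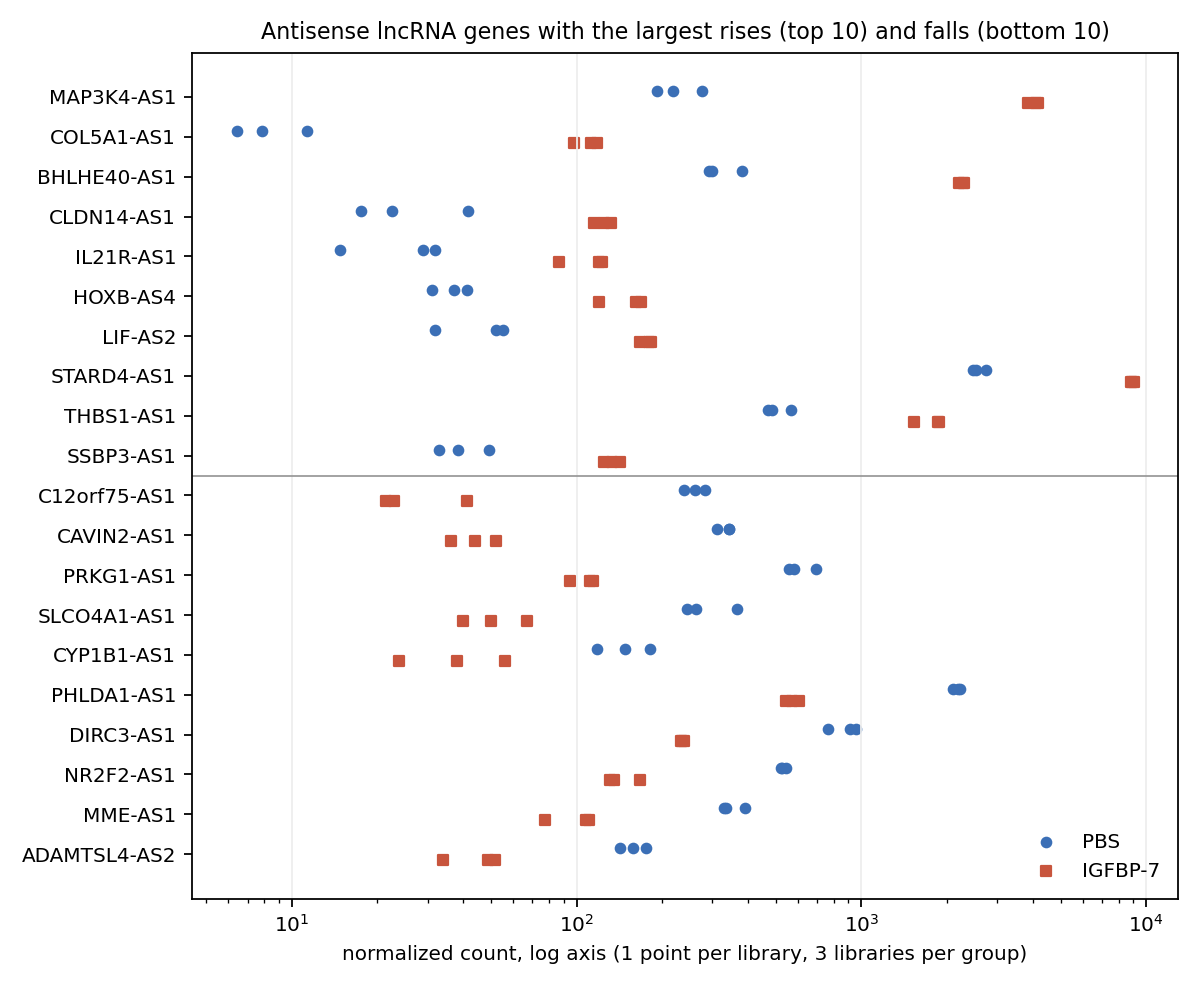
Normalized counts (log axis) of the 10 antisense genes with the largest rises (top) and the 10 with the largest falls (bottom), 1 point per library, circles for PBS and squares for IGFBP-7. Circles and squares do not overlap in any of the 20 genes, a condition of their choice, and MAP3K4-AS1 and COL5A1-AS1 show the widest gaps.

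The most abundant antisense genes moved less. THBS2-AS1, within the gene of the matrix protein thrombospondin-2 but without shared exonic bases, had 10767, 11683 and 11432 normalized counts with PBS and 16689, 17212 and 16751 with IGFBP-7, a log2 change of 0.58 ± 0.04. AFAP1-AS1, opposite a gene of an actin filament adaptor, fell from 10040.5 ± 419.9 to 6641 ± 346 (-0.60 ± 0.05), with AFAP1 at -0.63 ± 0.05. PXN-AS1, opposite the focal adhesion gene paxillin, rose from 6462 ± 347 to 8183 ± 372 (0.34 ± 0.05), RUSC1-AS1 from 6290.4 ± 109.8 to 7965 ± 257 (0.34 ± 0.05) and MIF-AS1 from 6099.8 ± 205 to 7281 ± 407 (0.25 ± 0.05).

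MIF-AS1 had nearly the same counts as its partner MIF, a cytokine gene, and 46.5% of its exonic bases lie over MIF exons. The recovered reads of MIF and MIF-AS1 were 11946 and 11946, 12768 and 12778, and 10996 and 11000 in the PBS libraries. With IGFBP-7 they were 14018 and 14016, 16400 and 16404, and 14964 and 14970. The counts of the sense and the antisense gene thus differed by at most 10 reads in any library. The kit keeps the strand of the RNA, but whether the counting used strand is unstated in the labels and headers. Without strand, reads from a gene and its antisense partner cannot be told apart where their exons overlap. A read can also be counted for each of the genes it lies in. FAM220A and SAGSIN1 had identical values in all 6 libraries, and so had PIGY and PYURF. Whether the same reads were counted for both genes of such a pair, or for MIF and MIF-AS1, was not tested.

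The 403 pairs in which both genes had a mean of at least 10 were therefore divided by the share of antisense exonic bases over the partner's exons. No exonic base was shared in 57 pairs, a share above 0 and up to 10% in 120, up to 25% in 95, up to 50% in 83 and above 50% in 48. Pearson's r between the log2 changes of antisense and sense genes was 0.82, 0.81, 0.82, 0.93 and 0.96 in these classes and 0.84 over all 403 pairs. These r are descriptions across pairs that share the same 6 libraries and, where exons overlap, bases. The median size of the log2 change of the antisense-to-sense ratio was 0.23 without shared bases and 0.10 above 50%. In between it was 0.16, 0.11 and 0.13, so the order was not even, and no test between the classes was made. Per exonic base, the median log2 level of antisense over sense was -0.16 without shared bases, -1.77 in the class up to 10% and 0.55 in the class above 50%. The part of shared reads in these values was not tested. Over all opposite-strand genes, 70 of the 619 antisense genes found in the annotation had no exonic base over any opposite exon, and of these 17 rose, 18 fell and 35 did not pass. Of the other 549, 100 rose, 127 fell and 322 did not pass.

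**Figure D2:**
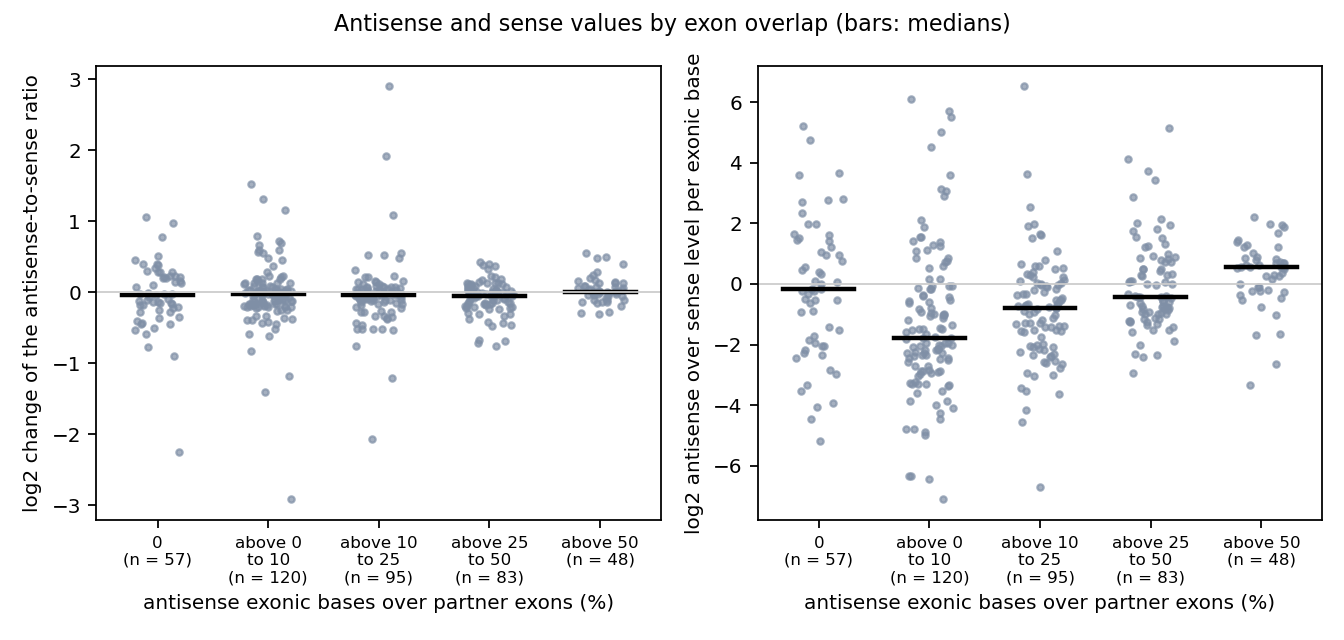
Antisense-sense pairs by the percent of antisense exonic bases over the partner's exons, 1 point per pair, with bars at the medians. The left panel shows the log2 change of the antisense-to-sense ratio (IGFBP-7 minus PBS), with bars at the medians of the signed values. Regardless of sign, the median size of this change was 0.23 without overlap and 0.10 above 50%, values that the bars do not show. The right panel shows the log2 level of antisense over sense per exonic base, with medians of -0.16, -1.77, -0.81, -0.42 and 0.55 from no overlap to above 50%.

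Of the 395 tested sense partners, 156 rose, 152 fell and 87 did not pass. The changed share was 78.0%, against 60.6% of all tested genes and 68.8% of those with a mean of 50 or more. Both genes changed in 193 of the 403 pairs, and in 191 of these they changed in the same direction, 85 upwards and 106 downwards. The exceptions were RETREG1-AS1 and HDAC2-AS2. In 122 pairs only the sense gene passed, in 14 only the antisense gene and in 74 neither. The median SE of the antisense genes on the log2 scale was 0.18 in the 122 pairs, 0.16 in the 14 and 0.18 in the 74. In the pairs where both changed it was 0.11. The part of this precision in the calls was not tested. Among the 204 antisense genes without a partner in the table, 24 rose, 28 fell and 152 did not pass.

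A shared direction was also seen without shared exonic bases. In the 57 pairs without any, both genes changed in 23, and all 23 moved the same way. COL5A1-AS1, NR2F2-AS1 and DIRC3-AS1 belong there. So do the following genes, picked for their roles after their values were seen. TBX3-AS1, beside the gene of a T-box transcription factor, rose from 263 ± 23.2 to 572 ± 35 (1.12 ± 0.12), and TBX3 from 3363 ± 134 to 7425 ± 254 (1.14 ± 0.05). WNT5A-AS1 rose from 134 ± 11.3 to 260.4 ± 25.5 (0.95 ± 0.16) beside the Wnt ligand gene WNT5A (0.97 ± 0.06). TGFB2-AS1, beside a TGF-beta ligand gene, rose from 455 ± 21.5 to 669 ± 65.8 (0.55 ± 0.10), with TGFB2 at 0.78 ± 0.06. ZFPM2-AS1, inside the gene of a GATA cofactor, fell from 223 ± 57.3 to 84.7 ± 7.61 (-1.36 ± 0.19), with ZFPM2 at -0.96 ± 0.18. Gene bodies can overlap without shared exonic bases. They did so in 23 of the 57 pairs with starts further apart than 1000 bases, where both genes changed in 9. In 11 pairs the starts were within 1000 bases and the gene bodies did not overlap. Both genes changed in 4 of these 11, in the same direction, and r was 0.72. Whether unspliced sense RNA contributes reads to antisense exons inside sense introns was not tested. By position, 210 pairs had starts within 1000 bases on opposite strands, with 41 antisense genes higher and 58 lower and an r of 0.86. A further 187 overlapped otherwise, with 49 higher and 57 lower and an r of 0.82.

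**Figure D3:**
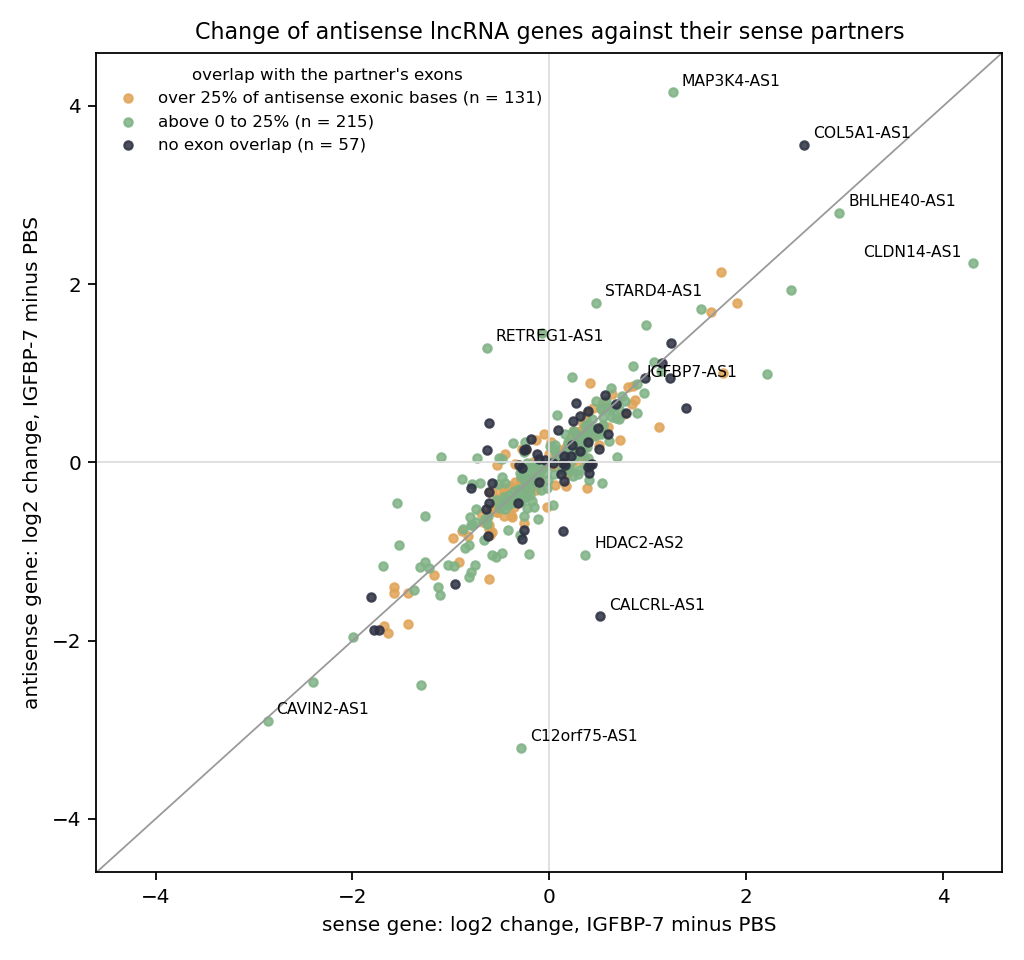
Log2 change (IGFBP-7 minus PBS) of each sense gene on the horizontal axis against that of its antisense gene on the vertical axis, 1 point per pair (403 pairs), coloured by exon overlap. Most points lie along the diagonal of equal change, also those without exon overlap, while MAP3K4-AS1, RETREG1-AS1, C12orf75-AS1, CALCRL-AS1 and CLDN14-AS1 lie away from it.

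The ratio of antisense to sense within a library, in which a scaling factor per library and gene length cancel, changed in 27 of the 403 pairs. It rose in 11 and fell in 16 (limma over all 613 antisense pairs, adjusted p under 0.05), and 5.22% of those 613 pairs were called, 2.12% higher and 3.1% lower. By exon overlap, it rose in 2 and fell in 5 of the 57 pairs without shared exonic bases. In the 120 pairs up to 10% it rose in 7 and fell in 5, and in the 95 up to 25% in 2 and 4. It rose in 0 and fell in 1 of the 83 up to 50%, and likewise of the 48 above 50%. The part of shared reads in these counts was not tested. Of the 122 pairs in which only the sense gene passed, 9 had a changed ratio, and of the 14 in which only the antisense gene passed, 3 had. Quantile normalization, which does not cancel in the ratio, gave 25 rises and 14 falls. The count of 16 falls became 10 without PBS library 1 and 9 without PBS library 3.

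The ratio rose most for MAP3K4-AS1, by 2.90 ± 0.09 (SE) on the log2 scale (limma adjusted p = 2.08e-08). The log2 ratio was -3.73, -3.34 and -3.63 with PBS and -0.70, -0.63 and -0.67 with IGFBP-7. RETREG1-AS1 and RETREG1, a receptor for the selective autophagy of the endoplasmic reticulum, moved in opposite directions. RETREG1-AS1 had 604, 593 and 538 normalized counts with PBS and 1514, 1363 and 1353 with IGFBP-7, where RETREG1 had 810.4, 939 and 891 and 645, 592 and 474. The antisense gene thus stood below its partner in every PBS library and above it in every IGFBP-7 library, and the log2 ratio changed by 1.92 ± 0.10 (limma adjusted p = 1.61e-06) although 24.4% of its exonic bases lie over RETREG1.

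STARD4-AS1 rose more than STARD4, with a ratio change of 1.32 ± 0.03 (limma adjusted p = 1.85e-09). STARD4 went from 7107 ± 444 to 9888 ± 269. SLC30A4-AS1, inside the gene of a zinc transporter, rose from 41.4 ± 12 to 113 ± 18.2, while SLC30A4 had 844 ± 77.2 and 804 ± 76.6 and did not pass (limma adjusted p = 0.521). For MAGI2-AS3 the ratio changed through the sense gene. MAGI2-AS3 had 2827, 3544 and 3395 normalized counts with PBS and 3398, 3546 and 3217 with IGFBP-7, overlapping values that did not pass (limma adjusted p = 0.412), while MAGI2, a scaffold protein gene, fell from 533 ± 50.8 to 248 ± 13.2 (-1.10 ± 0.12).

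Among the falls of the ratio, C12orf75-AS1 led with -2.92 ± 0.24 (limma adjusted p = 5.47e-05). CALCRL-AS1, opposite the gene of the calcitonin receptor-like receptor, had 501, 439 and 469 normalized counts with PBS and 145, 154 and 125 with IGFBP-7. CALCRL had 41.2, 31.4 and 45.9 and 57.2, 55.9 and 55.8, which did not pass (limma adjusted p = 0.131), and the antisense gene was the higher of the 2 in every library. Its ratio changed by -2.25 ± 0.14 without shared exonic bases. CLDN14 started from 3.09, 5.89 and 7.48 with PBS, where 1 library is at the level of 3 fragments, and reached 145, 112 and 109.5 with IGFBP-7. CLDN14-AS1 rose less, from 17.5, 22.6 and 41.7 to 125, 132 and 115, and the ratio fell by 2.07 on the log2 scale. HDAC2-AS2 fell from 93.3 ± 3.15 to 47.2 ± 17.6, while HDAC2, a histone deacetylase gene, rose from 9557 ± 354 to 12291 ± 227 (0.36 ± 0.05). HHIP-AS1 rose from 61.8 ± 10.4 to 123 ± 5.09, and HHIP, which encodes a hedgehog antagonist, from 87.2 ± 38.4 to 375 ± 23.7. The HDAC2-AS2 ratio call (limma adjusted p = 0.015) was lost when any 1 PBS library was left out. That of HHIP-AS1 (limma adjusted p = 0.0486) passed under 6 of 13 alternatives, and its PBS library 1 was the only one with a higher normalized count for the antisense than for the sense gene.

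**Figure D4:**
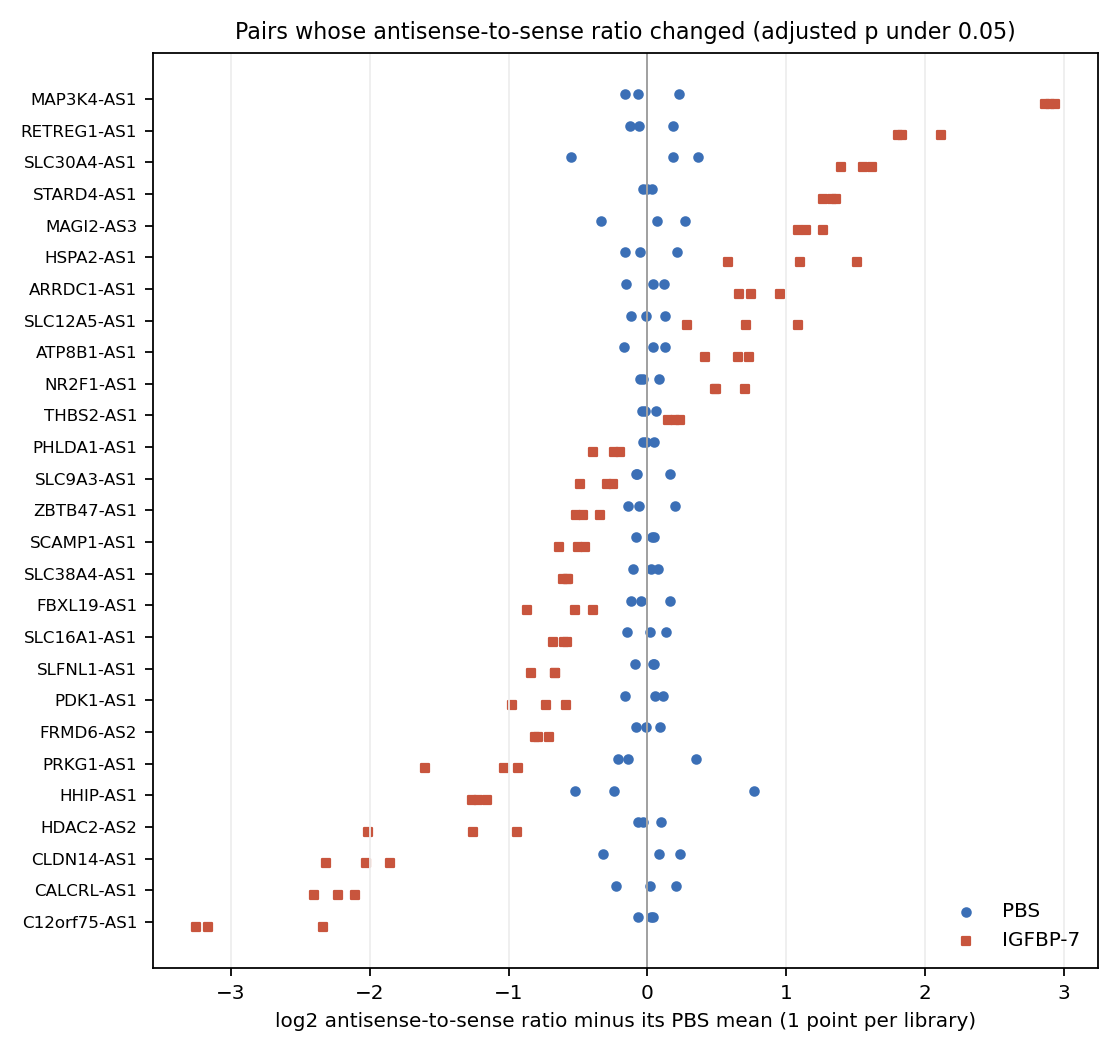
Log2 antisense-to-sense ratio minus its mean over the PBS libraries, 1 point per library (circles PBS, squares IGFBP-7), for the 27 pairs whose ratio changed. Squares lie to the right for the 11 rises, with MAP3K4-AS1 at the far right, and to the left for the 16 falls, with C12orf75-AS1 at the far left.

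IGFBP7-AS1 starts 532 bases from IGFBP7, the gene of the protein that was added, on the opposite strand. It had 3569, 3842 and 3418 normalized counts with PBS and 6511, 6527 and 6892 with IGFBP-7, so all treated libraries lay above all controls. The log2 change was 0.88 ± 0.05 (limma adjusted p = 6.45e-20), and IGFBP7 itself, the cells' own transcript, went from 11180.2 ± 511 to 20739.7 ± 474 with a log2 change of 0.89 ± 0.04. The ratio changed by -0.01 ± 0.03 (limma adjusted p = 0.891), and 94 of 1740 exonic bases are shared. The antisense genes most like it over the 6 libraries, by Pearson's r of log2 values, were P4HA2-AS1 (0.998), VCAN-AS1 (0.996) and FRMD6-AS2 (0.995). Such an r mainly reflects the step between the groups, whatever its size, and is a description only. P4HA2-AS1 rose from 708 ± 33.9 to 1279 ± 37 and VCAN-AS1 from 399 ± 56.3 to 1283 ± 61.8, with 65.3% and 51.7% of their exonic bases over the partner. FRMD6-AS2 rose from 218 ± 4.17 to 334 ± 11.8 (0.62 ± 0.13), less than FRMD6 (1.38 ± 0.04), and shares no exonic base with it.

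The sense genes' roles were then used to order the antisense genes. The groups were drawn up from gene names with the results known, so their counts are descriptions to be read against the 18.9% higher and 23.5% lower of all 620. Counts of partners are to be read against the 39.5% higher and 38.5% lower of the 395 tested partners. Of 23 antisense genes beside matrix, TGF-beta and stellate genes, 12 rose and 6 fell. A partner was in the table for 21 of them, and 12 partners rose and 6 fell. The median log2 change of the 23 was 0.55. Examples in this and the next groups outside the lists above were chosen after their values were seen. ACTA2-AS1, beside smooth muscle actin, rose from 415 ± 24.7 to 673 ± 108 (0.69 ± 0.11). HAND2-AS1 (a stellate cell transcription factor as partner) fell from 144 ± 24.7 to 70.6 ± 17.3 and GAS6-AS1 (the AXL ligand) from 2011 ± 35.6 to 1255 ± 185.

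Of 48 antisense genes beside adhesion, cytoskeleton and contraction genes, 6 rose and 26 fell. A partner was in the table for 33 of them, and 4 partners rose and 24 fell. The median log2 change of the 48 was -0.31. MYLK-AS1, opposite myosin light chain kinase, had 1727, 1548 and 1669 normalized counts with PBS and 799, 681 and 709 with IGFBP-7 (-1.18 ± 0.08). EZR-AS1, beside the membrane linker ezrin, fell from 1899 ± 115 to 857 ± 139 (-1.16 ± 0.08). ITGA2-AS1, beside an integrin for collagen, went the other way, from 128 ± 36.1 to 241 ± 0.281 (0.94 ± 0.17). Control and treated values did not overlap in these 3 genes.

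Of 23 antisense genes beside cytokine, innate immune and NF-kappaB genes, 5 rose and 8 fell. IL6-AS1 rose from 219 ± 20.7 to 346 ± 34.4 and LIF-AS2 rose as above, while LIFR-AS1, beside the LIF receptor gene, fell from 157 ± 9.26 to 65.7 ± 19.3. Of 35 beside transcription factor genes, 6 rose and 12 fell. ZEB1-AS1, beside a repressor of epithelial genes, had 202 ± 5.88 and 190.5 ± 18.5 and did not pass (limma adjusted p = 0.644). Of 15 beside growth factor receptor, Wnt, hedgehog and MAPK feedback genes, 6 rose and 2 fell.

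Of 22 antisense genes beside lipid, sterol and solute transport genes, 5 rose and 8 fell. SLC7A11-AS1, opposite the cystine transporter gene, fell from 392 ± 20.5 to 183 ± 38.3 (-1.12 ± 0.14). Of 24 beside zinc finger genes, 2 rose, 1 fell and 21 did not pass. Scaling to the library total turned the median of these last groups from 0.03 to -0.11 and from 0.09 to -0.05. Of 6 antisense genes named for HOX clusters, HOXB-AS4 and HOXD-AS2 rose and HOXA-AS2 fell. HOXD-AS2 went from 30.7 ± 14.8 to 79.1 ± 8.73 and HOXA-AS2 from 260.2 ± 52 to 112 ± 15.1.

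**Figure D5:**
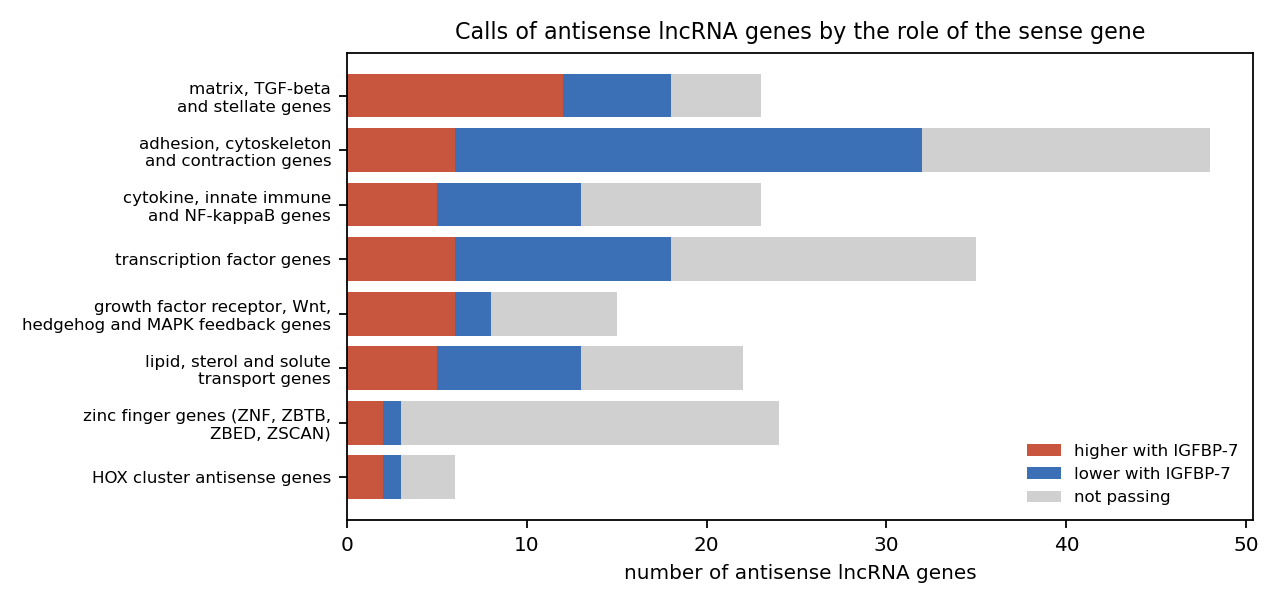
Number of antisense genes that were higher, lower or not passing (limma adjusted p under 0.05) by the role of the sense gene. The adhesion, cytoskeleton and contraction group holds 26 falls among 48 genes, the matrix group 12 rises among 23, and most zinc finger neighbours did not pass.

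Genes known to act on antisense or double-stranded RNA were read from lists of general knowledge, of which many genes are not analysed here: 11 of 18 listed genes of double-stranded RNA editing and sensing were tested, 11 of 27 of the exosome and decay, 9 of 30 of cleavage and Integrator, 9 of 18 of PRC2 and silencing, and 4 of 13 of small RNA processing. The counts of each list stand against 31.3% higher and 29.2% lower over all tested genes. Of 11 tested genes of double-stranded RNA editing and sensing, 9 fell and 0 rose. PBS library 2 was the lowest PBS library in 8 of these 9, so they are not independent of each other. The list's median log2 change was -0.35, against 0.02 over all tested genes. ADARB1, an adenosine deaminase acting on RNA, fell from 4612 ± 167 to 2299.5 ± 159 (-1.01 ± 0.06). OAS1, a sensor that makes oligoadenylates, had 1084, 609 and 1444 normalized counts with PBS and 473, 367 and 669.5 with IGFBP-7, so its groups overlap through PBS library 2. The groups overlap in 7 of the 9 genes that fell, in 6 of them only through PBS library 2, and ADARB1 and RIGI separate. Without that library 9 fell and 0 rose, with a median of -0.46. Leaving out the lowest PBS library raises the PBS mean by construction, so this is no test of the falls. Of 11 genes of the nuclear RNA exosome and decay, 8 rose and 2 fell, but scaling to the library total left 2 higher and 2 lower. EXOSC5, an exosome subunit, rose from 579.7 ± 29.6 to 918 ± 35.4, and DIS3L, a cytoplasmic exosome nuclease, fell from 2654 ± 184 to 1696 ± 185. Of 9 genes of cleavage, Integrator and early termination, 5 rose and 2 fell, and 2 and 3 with that scaling. Of 9 genes of the polycomb complex PRC2 and silencing, 3 rose and 6 fell, with a median of -0.28. Of 4 tested genes of small RNA processing, 1 rose, AGO3, and 3 did not pass.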

How the data were processed

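Gene expression was measured by RNA sequencing of poly(A) RNA in 3 libraries per group, grouped by the treatment label. The deposited values are normalized counts per the file headers, a signal that the authors made from read counts. STAR, Subread, featureCounts and DESeq2 are named per the submitters' processing notes, without version or role. Genome build, annotation release and strand setting: not given in the sources used here. Whole reads were recovered for 100% of values within 0.01 of a step, and over 99% of nonzero values were even, so 2 reads are 1 fragment. Depth was 40599380 to 55479940 reads per library, and 3 fragments, the smallest count read as signal, were 2.54 to 3.20 normalized counts. All sample columns were used.

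The main test was limma 3.58.1 (R 4.3.3) with a mean-variance trend on log2(normalized count + 1), over 11872 genes (mean 10 or more), adjusted by Benjamini-Hochberg, at a threshold of 0.05. Log2 changes are on that scale and understate those of low genes. The ratio test used log2((antisense + 1)/(sense + 1)) over all 613 antisense pairs with both means at least 10, and its variance trend followed the antisense level. Both tests were tested on simulated counts, with each gene drawn independently and no reads shared between partners. For the test of genes, far fewer genes were changed there than were called here. How the ratio test behaves with shared reads was not tested.

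Antisense genes were matched by Ensembl identifier to GENCODE v29 (GRCh38; 619 of 620 found) for exon overlap and start distance, in place of the RefSeq gene table first planned, which gives no strand. The authors' annotation may differ. Sequences came from the RefSeq start regions (GRCh38.p14), matched by symbol. Antisense symbols with merged identifiers (6) were left out of the set.

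Named genes were IGFBP7-AS1, the 10 largest rises and falls among changed genes without overlap of groups, the 5 highest means, the 5 largest ratio changes each way, the 2 genes on each side of the minimum, the 3 most like IGFBP7-AS1, and their partners. The members, lists and role groups were chosen with earlier results of these data known. Alternatives were other pseudocounts (0.5 and 5), library scaling, filters, minimum levels (20 and 100), edgeR 4.0.16 and DESeq2 1.42.0 on recovered reads, a replicate block and each library left out.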

Additional observations from a re-analysis of the deposited data

How the results depend on the processing

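Without 1 library at a time, 103 to 113 antisense genes rose and 130 to 143 fell, and 142 to 154 partners rose and 141 to 149 fell. The ratio then rose in 8 to 11 pairs and fell in 9 to 13, with 10 falls without PBS library 1 and 9 without PBS library 3, where fewer libraries were fitted. Quantile normalization gave 25 ratio rises and no filter on low values gave 10 ratio falls; the cause was not tested. edgeR's quasi-likelihood test called 111 antisense genes higher and 152 lower, and DESeq2 108 and 153. Both were run on reads, in which each fragment counts as 2, and the effect of this on the calls was not tested. The ratio was not run with either, as planned. No label states whether library numbers mark pairs. The deviations of libraries with the same number from their group means correlated at -0.05, 0.01 and -0.05. Such values show no strong shared shift but cannot tell whether those libraries were handled together. With the replicate number as a block, 118 antisense genes rose and 147 fell, and the ratio rose in 13 pairs and fell in 15. Over the named genes' log2 changes, 547 values under an alternative kept their direction and call, and 5 passed where the reported value did not (all TBX2-AS1). The sign turned in 3, of genes that passed in no fit: MAGI2-AS3 to -0.08 with scaling to the library total and -0.04 without PBS library 1, and KLRK1-AS1 to 0.10 without PBS library 1. Depth limits the lowest values, such as those of COL5A1-AS1 and CLDN14 with PBS.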

Other observations

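The table also listed 6 antisense symbols with merged identifiers, which belong to no comparison above. PRICKLE2-AS1, named for a planar cell polarity gene, had group means of 241 normalized counts with PBS and 627 with IGFBP-7, a log2 change of 1.38. GPR84-AS1 had 278 and 527 (0.92) and DNAJC9-AS1 had 234 and 298 (0.34), and all 3 passed in limma. ITFG2-AS1 and RAET1E-AS1 did not pass and BIRC6-AS2 was under the level tested.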
